A study of Mus musculus with 18 samples.

Results

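The response of Tlr9het B cells to CpG is described here across all genes, from the 6 of the 18 libraries that are labelled with this genotype. The libraries were chosen by their labels alone, 3 from cells left unstimulated and 3 from cells given the TLR9 agonist CpG (ODN 1826) at 10 µg/ml for 4 h. The cells were bead-purified splenic B cells of female MRL/lpr mice. The labels give an age of 5 to 7 weeks, whereas the study's methods give 5 weeks for these females. MRL/lpr mice bear the lpr mutation of Fas and spontaneously acquire an autoimmunity that resembles lupus. Both groups shared the genotype Tlr9+/- Tlr7-/-, so every cell lacked functional TLR7 and carried 1 functional copy of Tlr9. The titles and descriptions give Tlr9+/-, whereas the treatment protocol writes Tlr9-/- for the mice of this comparison, and the titles were followed. The B cells were left after beads had removed cells with CD43, CD4, CD8, CD11b, CD11c or Gr-1 on their surface, and the protocol names 3 mice for the genotype. Another 6 libraries of the same arm came from Tlr997 Tlr7-/- B cells, whose TLR9 carries the signaling TIR domain of TLR7, under the same conditions. They entered the statistical model and serve as the only outside comparison.

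TLR9 is an endosomal receptor for DNA with unmethylated CpG motifs. In B cells it signals through the adaptor MyD88, the IRAK kinases and TRAF6 to NF-κB, MAP kinases and interferon regulatory factors. A resting B cell that receives this signal leaves quiescence, grows, secretes cytokines and displays costimulatory molecules, and feedback inhibitors of the same pathway are made early.

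The deposited values were log2 CPM after quantile normalization, which gives every library the same distribution of values. A level below is therefore a relative one in log2 CPM, and a change is a log2 difference between CpG and unstimulated libraries, given with its SE from limma (n = 3 per group). Over the 11494 genes tested, libraries of 1 group correlated at 0.982 to 0.990 and libraries of different groups at 0.853 to 0.877, as a description without a test. Depth is unknown, since no counts were used. Tlr9 itself was at 7.48, 7.36 and 7.28 log2 CPM in unstimulated replicates 1, 2 and 3 and at 8.02, 7.93 and 8.08 log2 CPM with CpG. Reads were still assigned to Tlr7, at 3.29, 3.48 and 2.68 log2 CPM without and 4.11, 4.24 and 4.28 log2 CPM with CpG. Such reads do not check the Tlr7-/- label, since the part of the gene that the allele lacks was not analysed here.

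The cell type label was checked against markers. The B-cell genes Ms4a1, Cd79a, Cd79b, Cd22 and Pax5 were between 6.73 and 10.98 log2 CPM in the unstimulated libraries. Together, 6 B-cell markers summed to 5788 to 6456 CPM without and 1653 to 1721 CPM with CpG. Of these, 5 were called lower and 1 higher (median -2.01 log2), so the B-cell markers themselves were weaker in the CpG libraries. The summed level of 6 T-cell markers was 6.91 to 13.4 CPM without and 12.2 to 27.9 CPM with CpG, that of 5 NK-cell markers 4.71 to 9.04 and 7.64 to 15.6 CPM, and that of 7 macrophage markers 201 to 265 and 137 to 174 CPM. Of 7 macrophage genes tested, 6 were not called, and Lyz2, a lysozyme gene, fell by 0.97 ± 0.35 log2. Of 4 NK-cell markers tested, Ncr1, Gzma and Klrk1 were called higher, and of 6 T-cell markers tested Cd8a was (3 of 6 once the replicate number was a block, which added Cd3e and Cd3g, while the macrophage genes called lower became 2). Ncr1 and Gzma were under 0 log2 CPM, the limit of the filter, in every unstimulated Tlr9het library. Klrb1c was under it in all 6 libraries and was not tested. Genes this low at rest could pass only through other libraries, so the NK-cell count is no measure of those cells. The erythroid gene Alas2 followed the replicate number, not the treatment, at 7.05, 5.08 and 3.62 log2 CPM without and 6.56, 4.66 and 3.53 log2 CPM with CpG in replicates 1, 2 and 3, and Klf1 was at 1.77, -1.03 and -1.31 log2 CPM without and 1.56, -0.54 and -3.77 log2 CPM with CpG. In bulk RNA of this kind, fewer cells of a type and less RNA per cell cannot be told apart.

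With CpG, 3408 of the 11494 genes tested were higher (29.7%) and 3241 were lower (28.2%), at a limma adjusted p under 0.05 and a change over 0.5 log2. Large changes were frequent. Beyond 1 log2 there were 2019 higher and 2038 lower genes, beyond 2 log2 549 and 749, beyond 3 log2 146 and 227, and beyond 4 log2 61 and 65. The median change over all genes tested was 0.04 log2, and these shares and this median are the background for the counts in lists of genes. Of the 6649 called genes, 6647 moved the same way in all 3 pairs of libraries with the same number, and 6616 had groups that did not overlap. That last property was common, since 80.1% of all genes tested had groups that did not overlap. By average level over the 6 libraries, the 2874 genes with the lowest levels held 23.5% higher and 26.1% lower genes, and the 2873 with the highest levels 31.2% and 28.1%. Among the called genes named below, the largest adjusted p was 0.0481, that of Pdcd1.

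**Figure D1:**
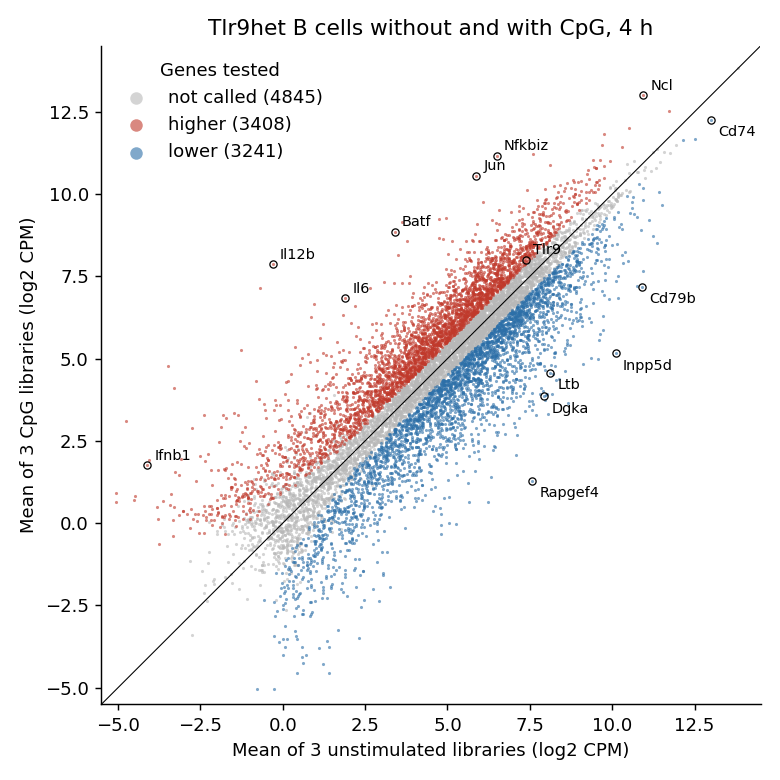
Each point is 1 of the genes tested, with the mean of the 3 unstimulated libraries on the x axis and the mean of the 3 CpG libraries on the y axis, both in log2 CPM, and the line marks equal levels. Red points (3408 higher) and blue points (3241 lower) lie on both sides of the line at all levels, with Il12b and Ifnb1 among the genes farthest above it and Rapgef4 and Inpp5d among those farthest below.

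Among genes with an average over 2 log2 CPM, the largest rise of those reported here was that of Il12b, which encodes the p40 subunit shared by the cytokines IL-12 and IL-23 (chr11:44400063-44414677, GRCm38). It was at -0.18, -0.77 and 0.04 log2 CPM without and 7.73, 7.87 and 8.01 log2 CPM with CpG, a change of 8.18 ± 0.28 log2 (adjusted p = 2.38e-11). Rhbdl3, a rhomboid-like gene (chr11:80300471-80355986), went from -0.60, -0.09 and -1.37 log2 CPM to 6.92, 7.31 and 7.25 log2 CPM, a change of 7.85 ± 0.27 log2. Both genes were close to or below the limit of the filter, 0 log2 CPM, in every unstimulated library and well inside the range of expressed genes in every CpG library. Slc7a3, a transporter of cationic amino acids, rose from 1.16, 0.81 and 0.90 to 6.63, 6.89 and 6.48 log2 CPM. Socs3, a feedback inhibitor of cytokine signaling, was at 3.31, 3.86 and 3.65 log2 CPM without and 9.09, 9.06 and 9.28 log2 CPM with CpG, and Batf, an AP-1 factor needed for class switching, was at 3.48, 3.23 and 3.48 and 8.75, 8.82 and 9.02 log2 CPM. Their changes were 5.71 ± 0.30, 5.54 ± 0.22 and 5.46 ± 0.11 log2. The next were Tnfsf15, which encodes the TNF-family cytokine TL1A (5.39 ± 0.18 log2), Fam89a (4.98 ± 0.34 log2), Il6 (4.93 ± 0.37 log2), the interferon lambda receptor chain Ifnlr1 (4.82 ± 0.22 log2), Fam129a (4.78 ± 0.14 log2) and Jun (4.68 ± 0.15 log2). In each of these the groups were separate, and the lowest CpG library stood more than 4 log2 units above the highest unstimulated one.

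The largest fall was that of Rapgef4, which encodes EPAC2, an exchange factor activated by cAMP (chr2:71981215-72257474). It was at 7.66, 7.56 and 7.50 log2 CPM in unstimulated libraries and 0.80, 1.64 and 1.40 log2 CPM with CpG, a change of -6.29 ± 0.24 log2 (adjusted p = 6.85e-11). The zinc finger gene Zfp831 fell from 6.31, 6.15 and 6.24 to 0.45, 0.79 and 0.73 log2 CPM and the calcium channel gene Cacna1i from 5.16, 5.21 and 5.40 to -0.29, 0.62 and -0.39 log2 CPM. These 3 genes were moderately to well expressed at rest. After 4 h Zfp831 and Cacna1i were close to 0 log2 CPM, and Rapgef4 was low but above it, at 0.80 to 1.64 log2 CPM. Inpp5d, which encodes the phosphatase SHIP-1, a brake on signaling through the antigen receptor (chr1:87620312-87720510), went from 10.16, 10.03 and 10.11 log2 CPM to 5.18, 5.25 and 5.06 log2 CPM, a change of -4.94 ± 0.07 log2. Lrrk2, a kinase gene, fell from 8.69, 8.69 and 8.60 to 3.71, 3.65 and 3.62 log2 CPM and Pgap1, a GPI-anchor enzyme, from 7.14, 7.00 and 7.07 to 2.31, 2.00 and 1.92 log2 CPM. The others were B3gnt8, Xkrx, Scml4, 4931429I11Rik, A430078G23Rik and Arhgef18, with changes of -5.14 to -4.73 log2. A430078G23Rik and Arhgef18 resolve to the same RefSeq locus (chr8:3353338-3456601), so how reads were divided between these symbols is uncertain.

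**Figure D2:**
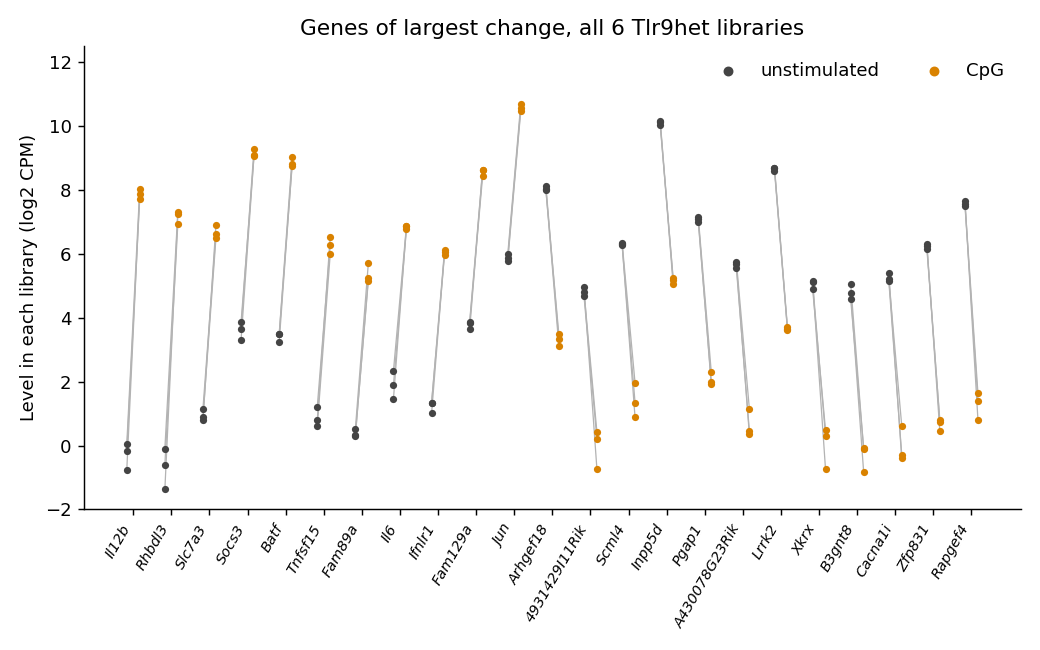
The 11 genes named for the largest rises and the 12 named for the largest falls are shown from left to right by log2 fold change, with each of the 3 unstimulated (grey) and 3 CpG (orange) libraries as a point in log2 CPM and lines joining libraries of the same replicate number. In each gene all 3 lines run the same way and the groups are separate, from Il12b, which rose by 8.18 log2, to Rapgef4, which fell by 6.29 log2.

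Genes of the route from TLR9 to NF-κB and genes related to it moved in both directions. The list also held Cd180, Ly86 and the interferon regulatory factors Irf5, Irf7 and Irf8, which are not steps of that route. Of 28 members, 4 were higher, 10 were lower and 14 were not called, with a median change of -0.06 log2. The lower share was not far above the 28.2% of all genes tested, and the higher share was below the 29.7% of all. Tlr9 rose by 0.64 ± 0.09 log2, the adaptor Myd88 by 0.55 ± 0.08 log2, Irf8 by 0.93 ± 0.08 log2 and the kinase Map3k8, at the threshold, by 0.50 ± 0.06 log2. Larger changes were among the falls. Cd180, which encodes RP105, a receptor of B cells related to the Toll-like receptors, went from 7.22, 7.202 and 7.26 log2 CPM to 4.75, 4.76 and 4.75 log2 CPM. Irak3, which encodes the inhibitory kinase IRAK-M, fell by 1.92 ± 0.13 log2, the endolysosomal transporter Slc15a4 fell by 1.66 ± 0.13 log2 and the kinase Irak2 fell by 1.37 ± 0.08 log2. Unc93b1 and Hsp90b1, which carry Toll-like receptors to endosomes and fold them, had changes of -0.85 ± 0.09 and -0.95 ± 0.08 log2. Map3k7, the kinase TAK1, had a change of 0.03 ± 0.06 log2 and was not called.

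Of the 11 NF-κB subunits and IκB proteins, 7 were higher and 4 were not called, with a median of 0.70 log2. Nfkbiz, which encodes the nuclear co-activator IκBζ, was at 6.64, 6.47 and 6.36 log2 CPM without and 11.19, 11.19 and 11.11 log2 CPM with CpG (4.68 ± 0.12 log2, adjusted p = 3.88e-12). Nfkbia, which encodes the inhibitor IκBα, rose by 2.08 ± 0.09 log2, Nfkb1 by 1.82 ± 0.06 log2 and Nfkbib by 1.72 ± 0.10 log2. Of the subunits with a transactivation domain, Rela had a change of 0.19 ± 0.07 log2, Relb of -0.32 ± 0.08 log2 and Rel of -0.39 ± 0.06 log2, none of them called. The IκB protein gene Nfkbid was not called either, at 0.17 ± 0.09 log2. Of 23 feedback inhibitors of NF-κB, MAP kinases and cytokine receptors, 15 were higher and 4 lower (median 0.88 log2). Tnfaip3, which encodes the ubiquitin-editing enzyme A20, went from 7.15, 7.19 and 7.17 log2 CPM to 9.56, 9.48 and 9.44 log2 CPM, and Socs1 from 1.76, 2.50 and 2.61 to 4.75, 4.82 and 4.99 log2 CPM. Traf1 rose by 2.85 ± 0.13 log2, Tnip3 by 3.07 ± 0.33 log2 and Zc3h12c, of the Regnase family, by 2.24 ± 0.12 log2. The deubiquitinase Cyld, another inhibitor of NF-κB, fell by 1.90 ± 0.05 log2, and Dusp6, a phosphatase of ERK, fell by 2.78 ± 0.24 log2. Socs2 changed by 2.49 ± 1.08 log2 and was called only with the replicate number as a block (adjusted p = 0.0539 without and 0.0348 with it).

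The letters GGGNNNTTCC, a form of the κB element to which NF-κB binds, were searched on both strands in the 250 bases upstream of gene starts (RefSeq promoters of GRCm38.p6). They occurred in 5.30% of the 9204 genes tested that had a promoter, in 5.55% of the higher genes and in 5.49% of the lower genes. They occurred in 13 of the 105 genes that were called with a change over 3 log2 (12.4%) and in 9 of the 174 called with a change under -3 log2 (5.17%). They were also in 4 of 8 genes of NF-κB subunits and IκB proteins, in 4 of 7 chemokine genes and in 4 of 20 cytokine genes. Not all of these rose. Of the chemokine genes with the letters, only Cxcl10 was called higher. Rel, of the NF-κB subunits, was not called, and the cytokine genes with them included Il6 and Ifnb1, which rose, and Ltb, which fell. Windows around the match are shown for 3 genes that rose, Nfkbia, Tnfaip3 and Il6, and for Ltb, a cytokine gene that fell, to show that the same letters stand upstream of genes of both directions. Each is written 5′ to 3′ on the strand of its gene, with the match in capitals, which began 29, 12, 44 and 87 bases upstream of the start.
Nfkbia, chr12:55492648-55492706, minus strand: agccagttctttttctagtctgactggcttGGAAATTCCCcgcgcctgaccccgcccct
Tnfaip3, chr10:19015411-19015452, minus strand: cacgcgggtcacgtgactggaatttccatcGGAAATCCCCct
Il6, chr5:30013040-30013109, plus strand: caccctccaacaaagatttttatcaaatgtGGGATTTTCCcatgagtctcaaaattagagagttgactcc
Ltb, chr17:35194390-35194459, plus strand: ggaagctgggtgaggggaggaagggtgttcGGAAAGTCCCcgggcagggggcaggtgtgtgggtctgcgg
The match is a description of these letters and not of binding, and the whole set of higher and lower genes held it at nearly the share of all genes.

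Cytokine genes held several of the largest rises. Of 33 members, 25 passed the filter on low values, and of these 18 were higher and 3 lower, with a median of 2.31 log2. Some of these, such as Ifnb1, passed only through their CpG libraries, so their number is no measure of a cytokine program. Il6 was at 1.47, 1.89 and 2.34 log2 CPM without and 6.87, 6.77 and 6.86 log2 CPM with CpG, and Il10, which encodes an anti-inflammatory cytokine, was at 0.93, 1.59 and 0.87 and 5.65, 5.68 and 5.52 log2 CPM. Ebi3, which encodes a subunit of IL-27 and IL-35, rose from 2.23, 1.91 and 2.40 log2 CPM to 6.67, 6.56 and 6.53 log2 CPM. All 3 genes were low in every unstimulated library, and no library of 1 group reached the other. Ifnb1, which encodes interferon beta, was at -3.53, -4.83 and -3.998 log2 CPM without CpG, near the lowest values of the files, and at 2.16, 1.51 and 1.64 log2 CPM with it. Tnf rose by 2.31 ± 0.10 log2, Il1b by 3.66 ± 0.17 log2, Lta by 2.91 ± 0.18 log2 and Tnfsf4, which encodes OX40 ligand, by 3.57 ± 0.29 log2. The IL-12 subunits did not move alike. Il12b rose as given above, and Il12a had a change of 0.08 ± 0.13 log2 and was not called. The 3 genes that fell were all well expressed at rest. Ltb, which encodes lymphotoxin beta, went from 8.15, 7.88 and 8.35 log2 CPM to 4.51, 4.59 and 4.63 log2 CPM, Il16 fell by 2.64 ± 0.13 log2 and Tgfb1 fell by 1.58 ± 0.07 log2. Ifng rose from -0.61, -0.23 and -0.51 to 1.25, 1.76 and 2.77 log2 CPM beside the NK-cell genes Ncr1, from -3.96, -2.06 and -1.67 to -0.98, 0.43 and 1.41 log2 CPM, and Gzma, from -1.67, -1.23 and -0.52 to 0.44, 1.31 and 1.96 log2 CPM. The part of those cells in the Ifng result was not tested. Of the 8 cytokine genes under the filter, Il2 was at -4.26, -5.00 and -3.78 log2 CPM without and -0.82, -1.06 and -0.50 log2 CPM with CpG, and Csf2 at -5.00, -4.38 and -3.29 and -1.24, -0.31 and 0.39 log2 CPM.

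Of 15 chemokine genes, 10 passed the filter, 6 were higher and 4 were not called, with a median of 1.70 log2. Ccl3 and Ccl4, which attract T cells and monocytes, led the list. Ccl3 was at 4.85, 4.68 and 4.69 log2 CPM without and 8.63, 8.69 and 8.68 log2 CPM with CpG, and Ccl4 at 5.26, 5.25 and 4.89 and 8.56, 8.54 and 8.61 log2 CPM. Cxcl10, an interferon-inducible chemokine, rose by 2.55 ± 0.31 log2, and Ccl22, a ligand of CCR4, by 2.25 ± 0.16 log2. Cxcl2 and Cxcl9 were not called, at -0.28 ± 0.17 and -0.07 ± 0.51 log2.

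Most costimulation and activation molecules rose. Of 29 members, 20 were higher and 6 lower, with a median of 1.44 log2. Slamf1, a homophilic receptor of lymphocytes, went from 3.34, 3.35 and 3.85 log2 CPM to 8.02, 8.09 and 8.36 log2 CPM, and Il2ra, the IL-2 receptor alpha chain, from 6.35, 6.12 and 5.80 to 9.78, 9.79 and 9.73 log2 CPM. The early activation marker Cd69 rose by 2.04 ± 0.07 log2, Cd40 by 1.87 ± 0.06 log2, Icam1 by 1.56 ± 0.08 log2 and Cd83 by 1.08 ± 0.07 log2. The ligands of PD-1, Cd274 and Pdcd1lg2, rose by 2.01 ± 0.10 and 2.45 ± 0.12 log2. The B7 pair divided, since Cd80 rose from 2.02, 2.02 and 1.70 to 3.44, 3.35 and 3.52 log2 CPM while Cd86 fell from 8.16, 8.21 and 8.21 to 7.46, 7.61 and 7.74 log2 CPM. So did the receptors of BAFF, since Tnfrsf13b (TACI) rose by 2.38 ± 0.18 log2 and Tnfrsf13c (BAFF receptor) fell by 0.76 ± 0.10 log2. The ligand Icosl fell by 1.23 ± 0.11 log2 and Tnfrsf18, which encodes GITR, fell by 1.91 ± 0.15 log2, the largest fall of the list. Fas, mutated in this strain, was at 0.32, 0.33 and 0.37 log2 CPM without and 2.16, 2.35 and 2.17 log2 CPM with CpG.

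Immediate early and AP-1 genes were split. Of 22 members tested, 12 were higher and 6 lower (median 0.66 log2). The lower share was near the 28.2% of all genes tested, and the higher share was above the 29.7% of all. Jun was at 5.99, 5.78 and 5.86 log2 CPM without and 10.67, 10.46 and 10.54 log2 CPM with CpG, and Junb rose by 0.66 ± 0.13 log2 while Jund fell by 0.73 ± 0.17 log2. The Egr genes, which antigen receptor signaling induces, were lower. Egr3 fell from 6.46, 6.25 and 6.47 to 3.70, 3.48 and 3.65 log2 CPM, Egr1 fell by 1.15 ± 0.16 log2 and Egr2 fell by 0.72 ± 0.09 log2. The nuclear receptors of the Nr4a family differed, since Nr4a3 rose by 1.38 ± 0.12 log2, Nr4a2 fell by 1.83 ± 0.13 log2 and Nr4a1 was not called at -0.30 ± 0.07 log2. Fos had a change of 0.20 ± 0.21 log2 at this time and was not called.

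Most genes of cell growth rose. Myc, a driver of ribosome production, was at 8.23, 7.96 and 8.16 log2 CPM without and 10.89, 10.80 and 10.96 log2 CPM with CpG (2.77 ± 0.10 log2, adjusted p = 2.86e-11). Of the other 9 tested genes of its network, only Mxd4, a repressor that competes for the partner Max, was called, and it fell from 4.75, 4.95 and 5.33 to 1.01, 1.33 and 1.57 log2 CPM. All 48 ribosome biogenesis genes were higher, with changes of 0.64 to 2.77 log2 and a median of 1.66 log2. Rrp9, a part of the small-subunit processome, rose from 5.25, 5.14 and 5.35 to 8.04, 7.99 and 8.01 log2 CPM, and Ncl, which encodes nucleolin, from 11.09, 10.90 and 10.85 to 13.01, 13.02 and 12.97 log2 CPM. The list took 0.924, 0.888 and 0.875 percent of all CPM in the unstimulated replicates 1, 2 and 3 and 2.92, 2.94 and 2.9 percent with CpG. The proteins of the ribosome itself did not follow. Of 80 cytosolic ribosomal protein genes tested, 7 were higher and 5 lower, with a median of -0.20 log2, and their share was 6.53, 6.78 and 6.94 percent without and 5.69, 5.81 and 5.64 percent of CPM with CpG. Many of these genes have near-identical pseudogenes, so reads can be split between copies and single values, such as that of Rpl34 at 1.95 ± 0.18 log2, are uncertain. The ribosomal proteins of mitochondria rose, with 64 of 76 higher and 12 not called (median 1.01 log2), led by Mrps6 at 2.33 ± 0.13 log2.

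**Figure D3:**
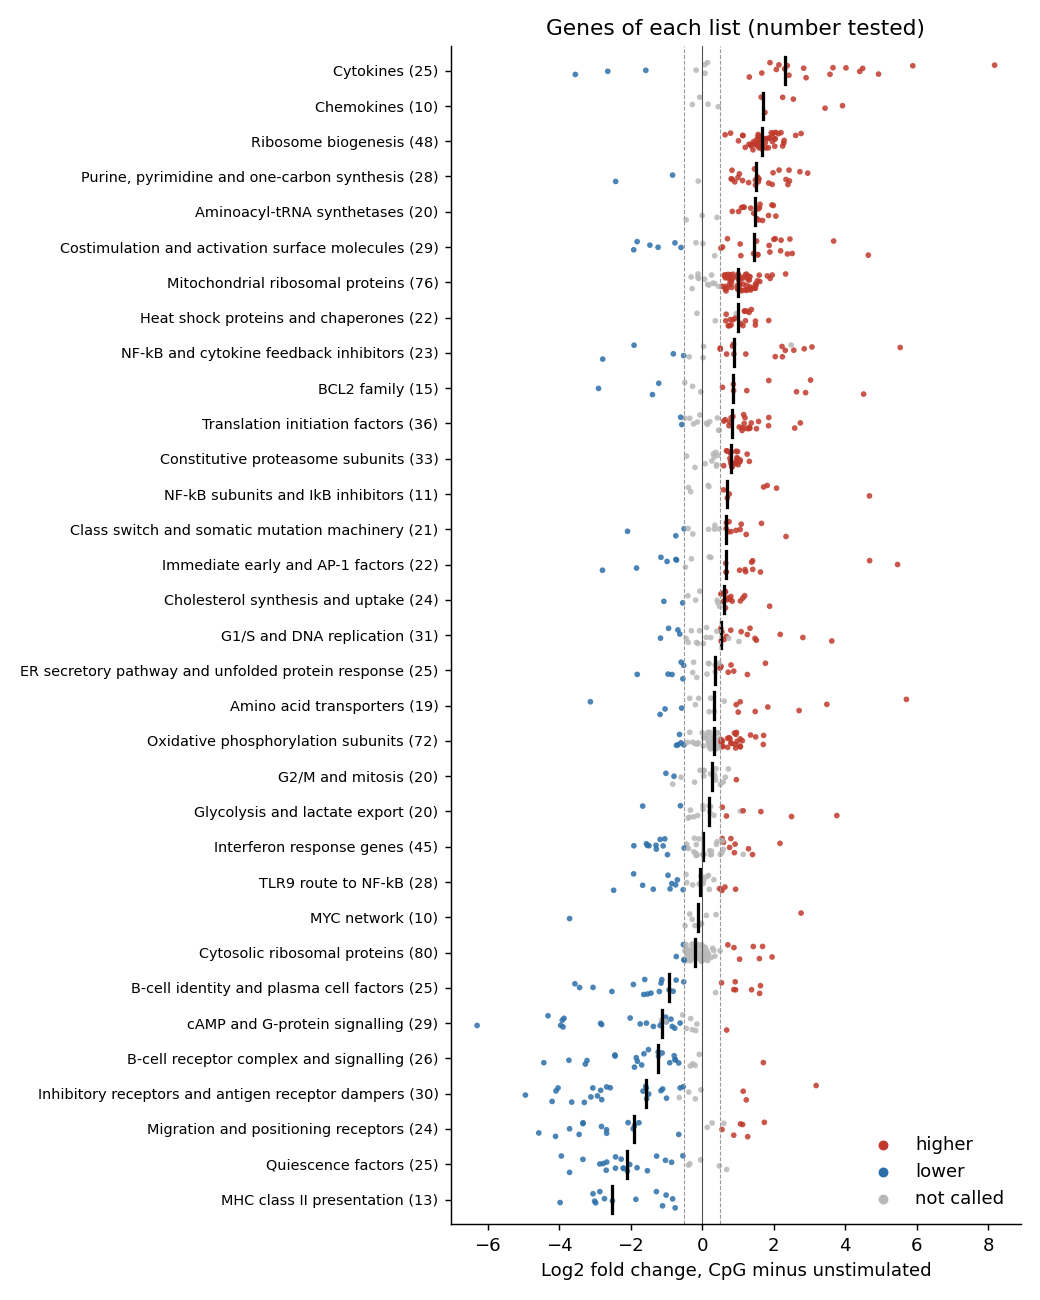
Each row is a list of genes with the number tested, each point is 1 gene at its log2 fold change (red higher, blue lower, grey not called), the black bar is the list's median and the dashed lines are at -0.5 and 0.5 log2. The ribosome biogenesis genes lie to the right of the dashed line without exception, the MHC class II genes to the left of it without exception, and the interferon response genes on both sides.

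Most of the tested genes of tRNA charging, translation initiation, nucleotide synthesis, chaperones and the proteasome were higher, and fewer of the amino acid transporters were. Of 20 cytosolic aminoacyl-tRNA synthetases, 17 were higher and 3 were not called (median 1.48 log2), with Tars, the threonine enzyme, at 2.06 ± 0.08 log2. Of 36 initiation factor genes tested, 23 were higher and 2 lower (median 0.83 log2). The largest rise was that of Eif2b3, of the exchange factor of eIF2 (2.75 ± 0.12 log2), and the largest fall that of Eif4ebp2 (-0.60 ± 0.07 log2). Among the others Eif4e, the cap-binding factor, rose by 1.86 ± 0.07 log2 and Eif4ebp1, its inhibitor, by 2.59 ± 0.14 log2. Of 19 amino acid transporters, 8 were higher and 4 lower (median 0.34 log2). Slc7a5, the large neutral amino acid transporter, rose by 2.71 ± 0.10 log2 and its partner Slc3a2 by 1.06 ± 0.07 log2, while Slc43a2 fell by 3.12 ± 0.18 log2. Of 28 genes of purine, pyrimidine and one-carbon synthesis, 25 were higher and 2 lower (median 1.52 log2). Mthfd2, the mitochondrial folate enzyme of growing cells, went from 5.91, 5.82 and 5.79 log2 CPM to 8.76, 8.86 and 8.75 log2 CPM. The CTP synthase genes went opposite ways, with Ctps at 2.44 ± 0.06 log2 and Ctps2 at -2.42 ± 0.09 log2. Of 22 chaperone genes tested, 19 were higher and 3 were not called (median 1.01 log2), led by the mitochondrial chaperonin Hspd1 at 1.86 ± 0.07 log2. Of 33 constitutive proteasome genes, 23 were higher and 10 were not called (median 0.81 log2), with the catalytic subunit Psmb5 highest at 1.32 ± 0.21 log2.

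Energy and lipid genes moved in both directions. Of 72 oxidative phosphorylation genes tested, 25 were higher and 5 lower (median 0.33 log2), from Uqcrq of complex III at 1.72 ± 0.17 log2 to Sdha of complex II at -0.72 ± 0.05 log2. The higher share was not far above the 29.7% of all genes tested, and the lower share was below the 28.2% of all. Of 20 genes of glycolysis and lactate export, 6 were higher and 2 lower (median 0.20 log2). That higher share was near the 29.7% of all genes tested, while 28.2% of all were lower. Hk2, the inducible hexokinase, rose from 4.77, 5.10 and 4.76 to 8.67, 8.63 and 8.62 log2 CPM while Hk1 fell by 1.66 ± 0.08 log2. The lactate carrier Slc16a1 rose by 2.50 ± 0.09 log2, and the glucose carrier Slc2a1 was not called at -0.13 ± 0.13 log2. Of 24 genes of cholesterol synthesis and uptake, 15 were higher and 2 lower (median 0.62 log2). Idi1 led at 1.89 ± 0.23 log2, and Tm7sf2, a sterol reductase gene, fell by 1.07 ± 0.43 log2.

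**Figure D4:**
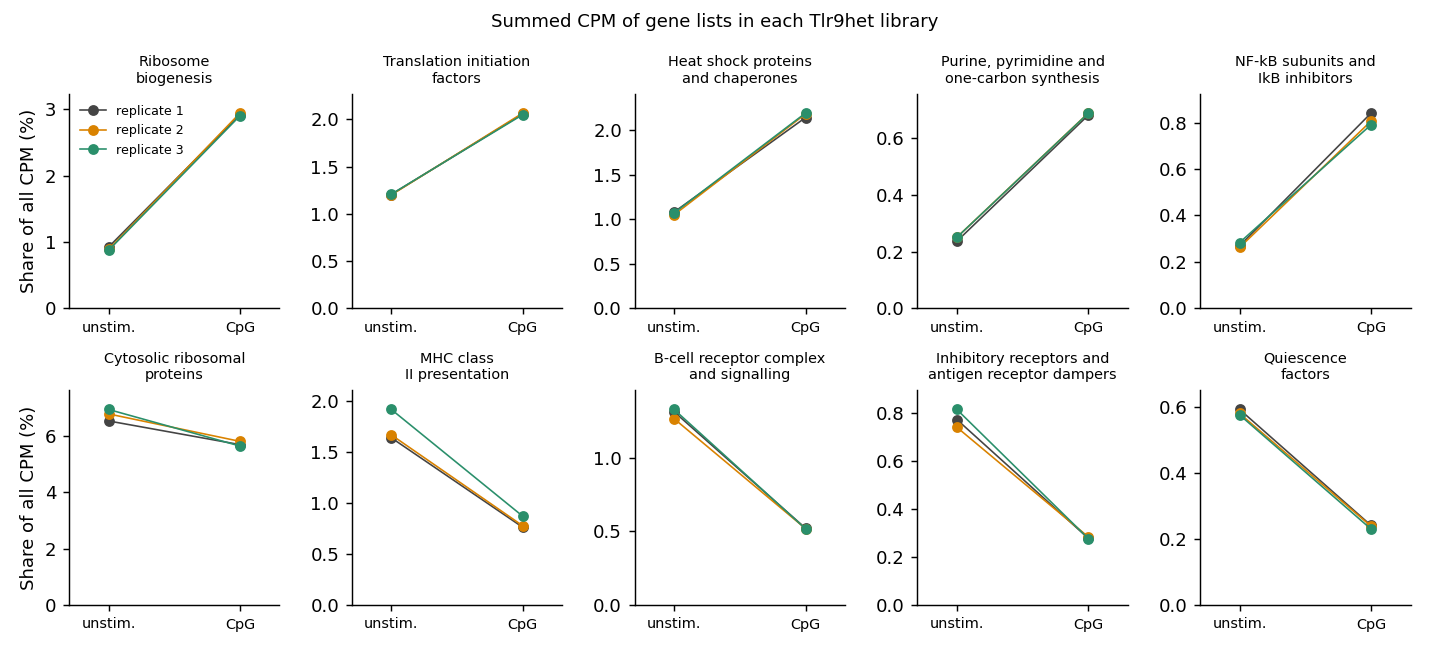
Each panel gives, for 1 list of genes, the share of all CPM that its members took in each Tlr9het library, in percent on an axis from 0, with lines joining libraries of the same replicate number. The share of the ribosome biogenesis genes was higher and that of the MHC class II genes (1.64, 1.67 and 1.92 percent without and 0.761, 0.775 and 0.869 percent with CpG) lower in all 3 pairs.

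The cell cycle genes were counted in 2 lists. Of 31 genes of G1/S and DNA replication, 14 were higher and 4 lower (median 0.52 log2). Ccnd2, which encodes cyclin D2, the main D cyclin of B cells, was at 7.64, 7.53 and 7.64 log2 CPM without and 11.19, 11.12 and 11.36 log2 CPM with CpG. Its kinases Cdk6 and Cdk4 rose by 2.82 ± 0.11 and 1.26 ± 0.09 log2, and Orc1 and Orc6 of the origin recognition complex by 2.18 ± 0.18 and 1.34 ± 0.20 log2. Mcm2 and Mcm3, of the replicative helicase, were higher by 0.55 ± 0.08 and 0.68 ± 0.10 log2, while its subunits Mcm4, Mcm6 and Mcm7 were not called, with changes of -0.16 to -0.07 log2. The largest fall was that of Pold1, the catalytic subunit of DNA polymerase delta (-1.16 ± 0.11 log2). Of 20 genes of G2/M and mitosis, 1 was higher and 2 were lower (median 0.28 log2), and with the replicate number as a block 4 were higher and 4 lower. Cdk1, the kinase of mitotic entry, was the gene called higher at 0.96 ± 0.30 log2, and the kinetochore motor Cenpe had the larger of the falls at -1.01 ± 0.27 log2. Mki67, the proliferation marker Ki-67, was at 7.302, 6.05 and 5.14 log2 CPM without and 6.20, 5.24 and 4.58 log2 CPM with CpG, so it differed more between the replicate numbers than between the treatments. It was not called (adjusted p = 0.217), and it was with the block (adjusted p = 7.07e-06).

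The BCL2 family moved in both directions. Of 15 tested, 9 were higher and 3 lower (median 0.87 log2). Bcl2l1, which encodes the survival factor BCL-XL, was at 4.88, 4.64 and 4.70 log2 CPM without and 9.44, 9.203 and 9.13 log2 CPM with CpG, and Bcl2 rose by 1.86 ± 0.06 log2. Bcl2a1a, Bcl2a1b and Bcl2a1d, the A1 genes, rose by 2.64 to 3.03 log2, but they are near-identical copies among which reads cannot be placed with certainty. The death inducer Bmf fell from 6.96, 6.88 and 7.08 to 4.22, 4.03 and 3.98 log2 CPM. Mcl1, also a survival factor, fell by 1.21 ± 0.05 log2, and the death inducers Bbc3 and Bcl2l11 rose by 1.25 ± 0.23 and 0.57 ± 0.07 log2.

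All 13 genes of MHC class II presentation were lower, with a median of -2.51 log2. H2-Ab1 and H2-Eb1 had changes of -1.28 ± 0.11 and -1.11 ± 0.11 log2, H2-Aa fell by 1.85 ± 0.09 log2 and H2-Eb2, another beta chain, fell by 2.86 ± 0.13 log2. H2-DMa, H2-DMb1 and H2-DMb2, of the peptide exchange factor, had changes of -2.98 ± 0.12, -2.51 ± 0.16 and -3.05 ± 0.14 log2, and H2-Oa and H2-Ob, of its inhibitor, changes of -3.01 ± 0.12 and -2.73 ± 0.14 log2. Cd74, the invariant chain, went from 12.92, 12.95 and 13.13 log2 CPM to 12.16, 12.19 and 12.38 log2 CPM, and the master regulator Ciita from 8.01, 7.70 and 8.27 to 6.96, 6.75 and 7.25 log2 CPM. March1, a ligase that removes class II molecules from the surface, had the largest fall, from 7.53, 7.59 and 7.63 log2 CPM to 3.76, 3.56 and 3.52 log2 CPM (-3.97 ± 0.15 log2, adjusted p = 5.6e-11).

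The antigen receptor pathway and its brakes fell together. Of 26 genes of the B-cell receptor and its signaling, 1 was higher and 21 lower (median -1.23 log2). Cd79a and Cd79b, the signaling chains of the receptor, went from 10.96, 10.89 and 10.97 to 7.67, 7.74 and 7.61 log2 CPM and from 10.98, 10.74 and 10.96 to 7.07, 7.22 and 7.22 log2 CPM. The kinases Btk and Syk had changes of -3.22 ± 0.07 and -2.43 ± 0.11 log2, the adaptor Blnk was not called at -0.08 ± 0.07 log2, and Lyn was not called at -0.19 ± 0.05 log2. Rasgrp2, an activator of the GTPase Rap1, fell from 7.09, 6.99 and 7.24 to 2.71, 2.84 and 2.49 log2 CPM. Cd81, a tetraspanin of the B-cell surface, was the exception and rose by 1.71 ± 0.06 log2. Of 30 inhibitory receptors and dampers of antigen receptor signals, 3 were higher and 23 lower (median -1.57 log2). As with all lists here, the members were chosen with earlier results of these data known, so the count is only a description. Besides Inpp5d, the adaptor Lax1 fell from 7.99, 7.66 and 8.20 to 4.01, 3.72 and 3.53 log2 CPM, and Dgka, which consumes diacylglycerol, from 7.90, 7.80 and 8.13 to 3.60, 4.09 and 3.88 log2 CPM. Cd22 and Siglecg, inhibitory lectins, had changes of -3.29 ± 0.12 and -2.57 ± 0.12 log2, Fcgr2b fell by 1.65 ± 0.13 log2 and Ptpn6, the phosphatase SHP-1, fell by 1.49 ± 0.14 log2. The 3 that rose were receptors that bind ligands on other cells. Lag3 went from 2.05, 2.08 and 1.93 log2 CPM to 5.36, 4.96 and 5.31 log2 CPM, Btla rose by 1.15 ± 0.09 log2 and Pdcd1, at low levels, by 1.23 ± 0.52 log2 (adjusted p = 0.0481), a call that was lost without any 1 of 4 of the libraries.

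Genes of cAMP and G-protein signaling were mostly lower, with 20 of 29 lower and 1 higher (median -1.12 log2). Phosphodiesterases, which break down cAMP, were among them. Pde2a went from 8.26, 8.31 and 8.33 to 4.15, 4.58 and 4.30 log2 CPM, Pde4a fell by 3.91 ± 0.23 log2, Pde3b fell by 2.81 ± 0.08 log2 and Pde4b fell by 1.73 ± 0.05 log2. So did Adcy7, an adenylyl cyclase that makes cAMP, from 7.91, 7.83 and 7.99 to 4.08, 4.07 and 3.92 log2 CPM. Rgs2 and Rgs14, which limit G-protein signals, had changes of -3.86 ± 0.10 and -4.31 ± 0.37 log2. The only rise was that of Adcy3, by 0.69 ± 0.10 log2.

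Genes of quiescence fell. Of 25 members, 20 were lower and 5 were not called (median -2.09 log2). Ccng2, a cyclin G gene of resting cells, went from 7.39, 7.28 and 7.40 log2 CPM to 3.39, 3.49 and 3.38 log2 CPM, and Cdkn1b, which encodes the inhibitor p27, from 7.37, 7.28 and 7.36 to 4.76, 4.70 and 4.50 log2 CPM. Klf2, which holds lymphocytes in quiescence, fell by 2.26 ± 0.11 log2, Btg2 fell by 2.77 ± 0.09 log2, Txnip fell by 2.09 ± 0.10 log2 and Foxo3 fell by 2.21 ± 0.26 log2. Foxo1 was not called, at -0.04 ± 0.07 log2.

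Of 25 factors of B-cell identity and plasma cells, 7 were higher and 16 lower (median -0.92 log2). The higher share was near that of all genes tested (29.7%), and the lower share was above it (28.2% of all). Irf4, which drives activated B cells towards plasma cells, was at 9.55, 9.39 and 9.35 log2 CPM without and 11.10, 10.97 and 11.03 log2 CPM with CpG, and Bcl6, the factor of germinal centers, rose by 0.92 ± 0.09 log2. Id2, an inhibitor of E proteins, had the largest rise of the list, 1.63 ± 0.11 log2. Pax5 rose by 0.54 ± 0.07 log2 while Ebf1, its partner in B-cell identity, fell by 1.20 ± 0.04 log2. Ets1, which restrains plasma cell formation, fell from 10.74, 10.74 and 10.78 to 7.18, 7.36 and 7.05 log2 CPM, Mef2c fell by 3.43 ± 0.10 log2, Ikzf3 fell by 3.05 ± 0.09 log2 and Bach2 fell by 1.63 ± 0.11 log2. Prdm1, which encodes the plasma cell regulator Blimp-1, had a change of 0.37 ± 0.30 log2 and was not called. Of 25 genes of the secretory pathway and unfolded protein response, 7 were higher and 6 lower, near the shares of all genes tested (29.7% and 28.2%). They ran from Dnajb9 at 1.77 ± 0.08 log2 to Sec11c at -1.82 ± 0.08 log2. Of 21 genes of the class switch and somatic mutation machinery, 11 were higher and 3 lower, with the uracil glycosylase Ung highest at 2.34 ± 0.11 log2 and Prkdc lowest at -2.09 ± 0.15 log2.

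Receptors that place B cells in tissue changed in both directions. Of 24 members, 6 were higher and 15 lower (median -1.91 log2). The higher share was no greater than the 29.7% of all genes tested, and only the lower share was above that of all genes (28.2%). Ccr7 and Gpr183, which guide activated B cells to the T-cell zone and the follicle border, rose by 1.27 ± 0.08 and 1.13 ± 0.10 log2, and Ptger4, a receptor of prostaglandin E2, by 1.74 ± 0.10 log2. Cxcr5, the follicle receptor, was not called at 0.14 ± 0.05 log2. Cxcr4 fell from 10.28, 10.16 and 10.08 to 7.04, 6.82 and 6.67 log2 CPM, and S1pr1, which lets cells leave the tissue, from 8.95, 9.11 and 9.004 to 6.38, 6.28 and 6.40 log2 CPM. Cnr2, the cannabinoid receptor of lymphocytes, fell by 4.10 ± 0.09 log2 and Gpr34 fell by 4.57 ± 0.44 log2. All 6 marginal zone markers were lower, among them Cr2, a complement receptor, at -1.89 ± 0.19 log2 and Mzb1 at -2.76 ± 0.09 log2. Of 4 follicular markers, Fcer2a and Cxcr5 were not called and 2, among them Klf2, were lower. Of 5 markers of age-associated B cells, Tbx21, which encodes T-bet, rose from 0.90, 1.52 and 2.22 to 4.54, 4.78 and 5.31 log2 CPM and Zeb2 by 0.56 ± 0.12 log2, while Cxcr3 fell by 2.81 ± 0.41 log2 and Itgax and Itgam were not called.

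Interferon response genes depended on 1 library. Of 45 tested, 9 were higher and 12 lower (median 0.02 log2). The lower share was near the 28.2% of all genes tested, and the higher share was below the 29.7% of all. Their mean level was 6.26, 6.24 and 5.64 log2 CPM in unstimulated replicates 1, 2 and 3 and 5.96, 5.91 and 6.05 log2 CPM with CpG, so unstimulated replicate 3 stood below the other libraries. Without it, 6 were higher and 15 lower and the median was -0.29 log2. In pairs 1 and 2 of libraries, 18 and 14 of the 45 genes were higher with CpG, and in pair 3 31 were. Mx1 moved by -0.52, -0.67 and 0.76 log2 in pairs 1, 2 and 3, and Rsad2, which encodes viperin, by 0.18, -0.18 and 1.64 log2. Other genes were called with and without that library. Isg15, a ubiquitin-like modifier, rose by 2.18 ± 0.35 log2 (by 1.70 without unstimulated replicate 3), Ifih1, the RNA sensor MDA5, by 1.29 ± 0.26 log2 (by 1.11) and Gbp2 by 1.41 ± 0.22 log2 (by 1.37). Stat2, which carries the interferon signal, fell from 7.93, 7.90 and 7.53 to 6.21, 6.24 and 6.31 log2 CPM. Irf2, a repressor of interferon genes, fell by 1.91 ± 0.08 log2, Ifit3 fell by 1.56 ± 0.30 log2 and Ddx58, which encodes the RNA sensor RIG-I, fell by 1.49 ± 0.13 log2. Calls of the higher genes Isg20, Oas1a, Oasl1 and Ifi27l1 were lost without that library.

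**Figure D5:**
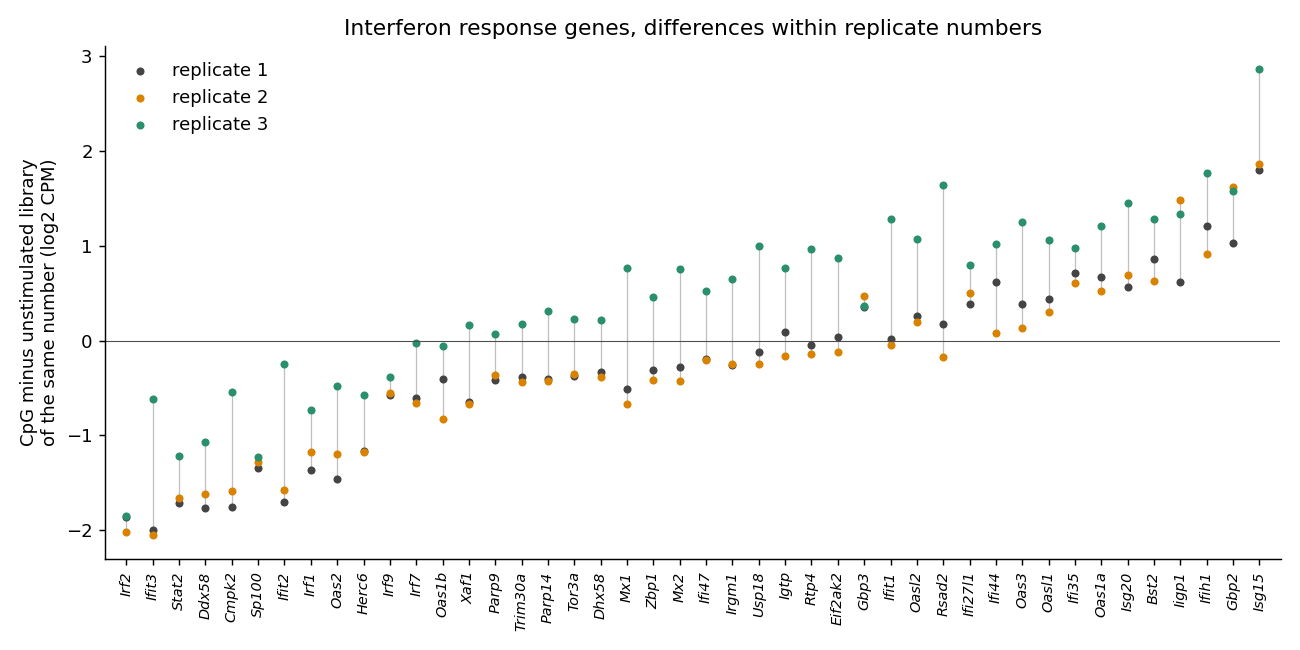
For the interferon response genes shown, ordered by log2 fold change, the points give the CpG library minus the unstimulated library of the same replicate number in log2 CPM. Replicate 3 lies above replicates 1 and 2 in nearly every gene from Ifit3 to Oasl1, and all 3 replicates lie below 0 for Stat2 and Irf2 and above 0 for Gbp2 and Isg15.

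The letters TTTCNNTTTC, a form of the interferon-stimulated response element bound by STAT and IRF proteins, were searched in the same promoters on both strands. They occurred in 2.80% of the 9204 promoters and in 14 of the 31 interferon response genes that had one, in 4 of 8 genes called higher, 3 of 10 called lower and 7 of 13 not called. Windows are shown for Isg15, which rose, and Ifit3, which fell, with the letters of all matches in capitals, 3 overlapping ones for Isg15 and 2 for Ifit3, the first of which is cut by the start of the window.
Isg15, chr4:156200845-156200914, minus strand: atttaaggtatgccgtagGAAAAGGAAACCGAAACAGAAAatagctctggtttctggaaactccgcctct
Ifit3, chr19:34583377-34583446, plus strand: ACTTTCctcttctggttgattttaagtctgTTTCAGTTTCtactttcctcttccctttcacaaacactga
The element was thus present upstream of genes of both directions in this list. The letters CACGTG, the E-box that MYC and its relatives bind, were in 8.79% of all promoters, 10.3% of higher and 8.48% of lower genes, and TGANTCA, the AP-1 element, in 4.18%, 4.03% and 4.33%. Among genes called with a change over 3 log2, CACGTG was in 8.57% and TGANTCA in 10.5%, and among those called under -3 log2 in 8.62% and 5.17%. Of these, CACGTG also stands in the window of Tnfaip3. Matches to different motifs do not overlap in the windows shown.

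The response was compared with that of Tlr997 B cells by the interaction term of the same model. The difference was called for 177 genes (1.54% of those tested), and for 328 with the replicate number as a block. The count was 101, 100 and 90 without CpG replicate 1, 2 or 3 of Tlr9het, 87 without its unstimulated replicate 1 and 292 without unstimulated replicate 3 of Tlr997. Among the genes named above, Il12b rose by 8.18 log2 in Tlr9het and 5.61 log2 in Tlr997, a difference of -2.56 ± 0.40 log2 (Tlr997 minus Tlr9het, adjusted p = 0.00546). For Slamf1 the changes were 4.64 and 3.51 log2 (difference -1.14 ± 0.19, adjusted p = 0.00931), and for Lag3 3.19 and 1.53 log2 (difference -1.66 ± 0.27, adjusted p = 0.00782). Ccl22 went the other way, with 2.25 log2 in Tlr9het and 3.83 log2 in Tlr997 (difference 1.58 ± 0.22, adjusted p = 0.00338). The ribosome biogenesis gene Rrp9 rose by 2.77 and 2.39 log2 (difference -0.37 ± 0.10, adjusted p = 0.0908) and the MHC class II gene H2-DMa had changes of -2.98 and -2.69 log2 (difference 0.28 ± 0.16, adjusted p = 0.427). A difference that was not called, as for these genes, does not show that the responses were alike.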

How the data were processed

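Per the labels and the study's methods, the authors prepared stranded mRNA libraries (TruSeq). Their processing notes name FastQC 0.11.7, Trim Galore 0.6.5, STAR 2.6.1a (mm10), featureCounts of Subread 2.0.1 and limma. The deposited values are log2 CPM for 23420 gene symbols after quantile normalization and voom, as relative levels. An offset per replicate number appears to be removed in the deposited values: of 6614 genes below -4 log2 CPM in all 12 libraries of the Tlr7-/- arm, 6306 hold 1 value per number.

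Genes over 0 log2 CPM in at least 3 of these 12 libraries were tested with limma 3.58.1 (R 4.3.3; group means, variance trend, 8 residual degrees of freedom, Benjamini-Hochberg adjustment). Calls needed an adjusted p under 0.05 and a change over 0.5 log2. Same-numbered Tlr9het libraries deviated together (correlations 0.51, 0.29 and 0.51; other pairs -0.43 to -0.11), so a fit with the number as a block was added. The labels do not tie a number to a mouse. Genes named are the 12 largest changes each way among called genes averaging over 2 log2 CPM without overlap, and list members, including the extremes of each list. Some genes meeting these rules are not reported or plotted here. Members and lists were chosen with earlier results of these data known. Positions and promoters are from RefSeq (GRCm38.p6). The scripts were tested on simulated data.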

Additional observations from a re-analysis of the deposited data

Results flagged for a closer look

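The CpG response of these genes named in the text differed between Tlr997 and Tlr9het by the interaction term in limma, at an adjusted p under 0.05 and a difference over 0.5 log2. Differences are given as Tlr997 minus Tlr9het in log2. Among genes that rose in Tlr9het, the difference was -2.56 for Il12b, -2.71 for Rhbdl3, -1.66 for Lag3, -1.34 for Tnfsf15, -1.24 for Socs1, -1.20 for Lta and -1.14 for Slamf1, so the rise was smaller in Tlr997. It was -0.94 for Ccl4, -0.82 for Batf, -0.77 for Hk2, -0.72 for Nr4a3, -0.65 for Ccnd2, -0.62 for Tnf, -0.62 for Tnfaip3 and -0.58 for Slc16a1, likewise with smaller rises. Ccl22 had a larger rise in Tlr997, by 1.58.

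Among genes that fell in Tlr9het, the difference was 1.21 for Cd180, 1.16 for Ms4a1, 1.14 for Cd79b, 0.81 for Ebf1, 0.79 for Stat2, 0.77 for Bmf, 0.75 for Syk, 0.74 for Pde3b, 0.70 for Btk and 0.64 for Inpp5d. Ms4a1, which encodes CD20, had changes of -0.75 log2 in Tlr9het and 0.41 log2 in Tlr997, while the other genes of this group fell less in Tlr997. S1pr1 differed by -1.21, with the larger fall in Tlr997, and Foxo1, not called in Tlr9het, by -0.57. The cause of these differences was not tested, and the number of called differences depended on single libraries, as given beside the count of 177. Many of these genes were named for large changes in the same Tlr9het libraries. That choice favours smaller changes in Tlr997, so the balance of directions among them is not a result.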

How the results depend on the processing

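Depth is unknown, and with 3 libraries a group the precision rests on the model shared by 12 libraries. The labels do not say which libraries share a mouse, so the p-values refer to these libraries and not to mice. They measure only the spread left in the deposited values, from which an offset per replicate number appears to be removed. The residual degrees of freedom of the main fit were not lowered for this. Its SEs and p-values may therefore be too small, by an amount that was not tested. Quantile normalization hides any change in total RNA per cell. Each alternative gave 0 genes called in the opposite direction. The 3408 higher and 3241 lower genes became 2019 and 2038 with a change over 1 log2, and 3259 to 3360 and 3133 to 3170 when 1 library was left out. Centering on the mean of middle genes moved the higher share of called genes from 51.3 to 49.3 percent. The replicate block gave 3476 and 3278, with 6622 calls shared, and changed no call of a named gene beyond those given as blocked values, Cd3e, Cd3g, Mki67 and Socs2. The 177 genes whose response differed in Tlr997 became 328 with the replicate block and 46 with a difference over 1 log2. That count ran from 87 to 292 when 1 of the 12 libraries was left out.

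Of the genes named, some were not called and changed sign. Cxcl9 was at 0.0019 log2 on log2(CPM + 1), and with middle genes centered Map3k7 was at -0.0090 and Fcer2a at -0.018 log2. With 1 library left out, the change ran from -0.42 to 0.44 log2 for Cxcl9, -0.10 to 0.12 for Fcer2a, -0.55 to 0.071 for Mx1, -0.027 to 0.18 for Il12a, -0.13 to 0.91 for Rsad2, -1.16 to 0.56 for Alas2, -0.72 to 0.38 for S100a9 and -1.97 to 0.70 for Klf1. The causes were not tested.

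Calls were lost without 1 library, named with the change in log2 that remained, for Cdk1 (without CpG replicate 1, 0.79), Ifi27l1 (without unstimulated replicate 3, 0.43), Igj (without CpG replicate 3, -0.45, unstimulated replicate 1, -0.49, unstimulated replicate 2, -0.70), Isg20 (without CpG replicate 1, 0.77, CpG replicate 2, 0.90, unstimulated replicate 3, 0.50) and Lyz2 (without CpG replicate 1, -0.95, CpG replicate 3, -0.88, unstimulated replicate 2, -0.84). They were likewise lost for Map3k8 (without CpG replicate 1, 0.50, CpG replicate 3, 0.48, unstimulated replicate 2, 0.49, unstimulated replicate 3, 0.48), Ncr1 (without CpG replicate 3, 2.29, unstimulated replicate 1, 2.16), Oas1a (without CpG replicate 1, 0.87, CpG replicate 3, 0.65, unstimulated replicate 1, 0.80, unstimulated replicate 2, 0.86, unstimulated replicate 3, 0.75), Oasl1 (without unstimulated replicate 3, 0.36) and Pax5 (without unstimulated replicate 2, 0.49). They were likewise lost for Pdcd1 (without CpG replicate 2, 1.21, CpG replicate 3, 0.85, unstimulated replicate 1, 0.82, unstimulated replicate 2, 1.26), Tm7sf2 (without CpG replicate 2, -1.04, CpG replicate 3, -0.88, unstimulated replicate 1, -0.89, unstimulated replicate 3, -0.93), Xbp1 (without CpG replicate 3, -0.46, unstimulated replicate 1, -0.49, unstimulated replicate 2, -0.48) and Zeb2 (without unstimulated replicate 3, 0.43). Calls were gained for Cd3e (without unstimulated replicate 3, 2.43), Itgax (without unstimulated replicate 3, -0.58) and Mx1 (without unstimulated replicate 3, -0.55).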

Other observations

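Markers of further cell types were measured as well. Of 6 neutrophil genes tested, 6 were not called, and S100a9, a calcium-binding protein of neutrophils, was at 2.78, 4.70 and 4.60 log2 CPM without and 2.98, 4.27 and 4.53 log2 CPM with CpG, lowest in replicate 1 of both groups. The 3 platelet genes tested were not called either. Zbtb46, a factor of conventional dendritic cells, rose from 4.00, 3.68 and 4.04 to 5.72, 5.52 and 5.88 log2 CPM, while Flt3, a growth factor receptor of the same cells, had a change of 0.33 ± 0.12 log2 and was not called. Bst2, which marks plasmacytoid dendritic cells and is also an interferon response gene, rose by 0.92 ± 0.18 log2, and Siglech, a lectin of the same cells, was not called at -0.49 ± 0.37 log2. Of 4 plasma cell markers, Sdc1, Igj and Xbp1 were lower. Sdc1, which encodes syndecan-1, went from 5.17, 5.11 and 5.04 to 3.83, 3.82 and 3.38 log2 CPM, and Igj, the joining chain, from 9.08, 8.67 and 8.09 to 8.30, 8.03 and 7.34 log2 CPM, with groups that overlapped and the same order of replicates in both.

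Cytokine and chemokine genes under the filter were low in all 6 libraries. Il27 was at -4.64, -3.21 and -3.26 log2 CPM without and -0.44, -0.70 and -2.12 log2 CPM with CpG, beside the rise of its partner Ebi3. Cxcl11 was at -3.31, -2.13 and -2.88 and -0.77, -0.25 and -0.43 log2 CPM, and Ccl17 at -2.34, -2.002 and -2.82 and -2.32, -2.57 and -1.86 log2 CPM. Il23a, whose product pairs with that of Il12b, was at -4.87, -3.22 and -5.34 and -3.37, -2.67 and -3.73 log2 CPM.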
